A study of Homo sapiens with 24 samples.

Results

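Complement components and regulators were followed as 9 genes in HK-2 cells, an immortalised line of human kidney proximal tubule epithelium. They are C3 and CFB (the central component and factor B), C1R and C1S (the proteases of C1), CFI and SERPING1 (soluble regulators), and CD46, CD55 and CD59 (membrane regulators). The genes were chosen by name, and each was found by its Ensembl ID in a table of 65180 gene IDs and 24 RNA-seq libraries. A row was found for 8 of the 9, and C1R is not analysed here. After a filter on low counts, 7 of the 8 entered the tests, and SERPING1, with 0 to 6 counts per library, did not.

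The study asked how an activator of soluble guanylate cyclase, BAY 60-2770 (BAY below), acts on these cells under low oxygen and under transforming growth factor β1 (TGF-β1). Soluble guanylate cyclase makes cyclic GMP in answer to nitric oxide, and an activator of this class switches it on when its haem is oxidised or lost. The 6 groups were hypoxia with BAY (3 libraries), hypoxia with solvent (3), normoxia with TGF-β1 and BAY (5), normoxia with TGF-β1 (5), normoxia with BAY (3) and normoxia with solvent (5). All cells had been kept without serum overnight and were treated for 24 h, hypoxia was 0.3% oxygen, TGF-β1 was given at 2 ng/mL, and control cells received the solvents (DMSO, and HCl with bovine serum albumin). The labels give the BAY concentration as 1 mM, a unit that may be misprinted, so the BAY results belong to an uncertain dose. The replicates, all of 1 cell line, are called biological in the labels, which do not say whether cultures were separate. The p-values therefore rest on the spread between libraries, which may be technical.

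Complement is a cascade of plasma and tissue proteins that marks and lyses cells. C1R and C1S start the classical pathway, factor B forms the alternative pathway convertase, and both pathways cleave C3, whose larger fragment C3b binds covalently to nearby surfaces. Host cells hold this in check with CD55, which hastens the decay of convertases, CD46, a cofactor for the cleavage of C3b by the protease factor I (the product of CFI), and CD59, which blocks the membrane attack complex. The kidney tubule is a known local source of C3, and its cells carry the membrane regulators.

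Library totals ran from 78862528 to 105571250 counts, so counting error is small for all members except CFB (8 to 199 counts per library) and SERPING1. Within the groups of 5, libraries fell into 2 sets on the first principal component of their deviations from the group means, which held 46.7% of that variance. Set 1 held solvent replicates 1, 2 and 5 and replicates 1 and 2 of both TGF-β1 groups, and set 2 held the other libraries of these groups. No label names this split, and each call that it ends is given beside its result. All 8 markers of epithelium and renal lineage (among them PAX8, KRT8 and EPCAM) reached 1 CPM (count per 1000000 counts) in every group mean. Of 12 proximal tubule markers only 3 or 4 did, mainly GGT1, while the transporters SLC22A6, SLC22A8 and SLC5A1 and the receptor LRP2 were at or near 0. Of 11 immune cell markers, AIF1, CD163, CD3E and the 3 C1q chains were at 0 in every library, and the summed level was mostly CSF1R.

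Expressed per kilobase of the longest annotated principal transcript, CD46 was the most abundant member in normoxic solvent cells, at 127 ± 1.19 CPM per kb (SD, n = 5). CFI followed at 45.6 ± 1.87, CD59 at 23.9 ± 1.26 and C3 at 22.3 ± 1.82 CPM per kb, and the levels of CD59 and C3 differed by less than their spread. C1S at 4.43 ± 0.174 and CD55 at 4.12 ± 0.241 CPM per kb differed little more than their spread. CFB stood at 0.299 ± 0.124 and SERPING1 at 0.0105 ± 0.00557 CPM per kb. Before division by length, CD59 at 182 CPM stood above C3 at 117 and CFI at 98.5 CPM in these cells. The order of these members thus depends on the transcript length used. Under TGF-β1, CD46 stayed first with 88.5 ± 2.03 CPM per kb, and CD59 came next with 46.7 ± 3.24 CPM per kb, above CFI with 21.1 ± 1.63 CPM per kb (SD, n = 5 each). Under hypoxia with solvent the order began with CD46 at 166 ± 5.49, then C3 at 39.8 ± 7.19 and CFI at 36.3 ± 0.279 CPM per kb (SD, n = 3), where C3 and CFI differed by less than the spread of C3.

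The 3 membrane regulators moved apart from each other in these data, and their promoters are shown for that reason. CD55 (ENSG00000196352, chromosome 1, 207321376 to 207386804, plus strand) and CD46 (ENSG00000117335, chromosome 1, 207752057 to 207795513, plus strand) lie in the same gene cluster of complement regulators, and CD59 (ENSG00000085063, chromosome 11, 33703010 to 33736491, minus strand) lies elsewhere, all on GRCh38 with GENCODE 29. The sequences are the 250 bases before the most upstream RefSeq start of each gene on GRCh38.p14, written 5′ to 3′ along the gene's strand, with capitals for TGACG, the core of the cyclic AMP response element. The windows are chr1:207321428-207321677 (plus strand, 64.0% G and C), chr1:207751788-207752037 (plus strand, 64.8%) and chr11:33736480-33736729 (minus strand, 62.0%). GENCODE 29 begins CD55 further upstream than RefSeq, so the CD55 window lies within the GENCODE span given above, and the CD59 window overlaps the edge of its span.
CD55: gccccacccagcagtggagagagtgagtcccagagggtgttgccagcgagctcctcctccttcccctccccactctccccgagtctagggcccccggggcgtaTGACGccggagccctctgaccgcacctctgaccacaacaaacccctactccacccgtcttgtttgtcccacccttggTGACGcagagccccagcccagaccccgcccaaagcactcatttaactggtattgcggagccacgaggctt
CD46: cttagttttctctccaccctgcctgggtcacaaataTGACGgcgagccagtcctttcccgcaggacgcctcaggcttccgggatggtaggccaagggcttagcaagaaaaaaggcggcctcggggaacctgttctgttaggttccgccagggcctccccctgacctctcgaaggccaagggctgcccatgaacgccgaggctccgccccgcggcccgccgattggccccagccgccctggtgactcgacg
CD59: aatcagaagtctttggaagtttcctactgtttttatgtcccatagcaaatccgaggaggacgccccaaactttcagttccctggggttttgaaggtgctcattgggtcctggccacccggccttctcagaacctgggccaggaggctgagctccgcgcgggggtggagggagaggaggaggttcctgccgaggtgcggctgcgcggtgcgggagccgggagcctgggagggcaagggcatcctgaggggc
In windows of 300 bases (250 before to 50 after the start), TGACG was searched on both strands and found at 24.6% of 35116 RefSeq promoters. The CD55 window held it at positions -147 and -70 from the start, the CD46 window at -214, and the CD59 window held none. The windows of CFB and CFI, the other members with a window, held none either. Other motifs searched on both strands were the hypoxia response cores ACGTG (21.4% of promoters) and GCGTG (36.5%), the SMAD box GTCTG (45.3%), the STAT site TTCNNNGAA (7.66%), an NF-κB-like site (21.5%) and an interferon response core (3.57%). CD55 had a SMAD box on the reverse strand at -52 and an NF-κB-like site at -216, CD59 had a STAT site at -128, and CD46 had GCGTG on the reverse strand at 28 after the start. CFB had a SMAD box at 26 after the start, a STAT site at -92 and an NF-κB-like site at -111. It also had an interferon response core on the reverse strand at -140, while CFI had none of these motifs. Such matches are short, frequent strings of letters and say nothing about which factor binds there.

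Across the comparisons, edgeR's quasi-likelihood test with Benjamini-Hochberg adjustment over all genes of a fit called a gene at an adjusted p below 0.05, and most members were called in most of them. Hypoxia, compared in solvent cells, raised 4 of the 7 tested members (C3, CD55, C1S and CD46) and lowered 2 (CFI and CD59), beside 60.8% of 21316 genes called in either direction (29.2% higher, 31.6% lower). BAY in normoxia raised CD55, CFB, CFI and CD46 and lowered CD59 and C3, 6 of 7 beside a background of 43.9% (20.6% higher, 23.3% lower). In hypoxia BAY raised CD55 and CFI and lowered CD59 and C3, 4 of 7 beside 37.9% (16.5% higher, 21.4% lower). TGF-β1 raised CD59 and C1S and lowered CD46, C3, CFI and CFB, 6 of 7 beside 62% of 21640 genes (29.5% higher, 32.5% lower). Given with TGF-β1, BAY raised CD55, CFI and CD59 and lowered CD46, C3 and C1S, 6 of 7 beside 29.5% (13.9% higher, 15.6% lower).

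By a test of the interaction, the BAY effect differed between hypoxia and normoxia for 3 of 7 members (CD55 upwards, CD46 and CFI downwards), beside 16.8% of all genes (8.83% higher, 7.92% lower). Between TGF-β1 and solvent it differed for 3 of 7 (CD59 upwards, CD46 and C1S downwards), beside 20.7% (13.7% higher, 7.07% lower). With so large a share of all genes called, a call alone does not set a member apart. The median log2 change of the members was 0.39 in hypoxia, against -0.02 over all genes tested, and -0.52 with TGF-β1, against -0.04. It was 0.17 for BAY in normoxia, 0.13 for BAY in hypoxia and -0.09 for BAY on TGF-β1, against 0.00, -0.02 and 0.01 over all genes. The comparisons share libraries (the normoxic solvent and BAY libraries enter several), so their values for a member stand side by side and are not independent.

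**Figure D1:**
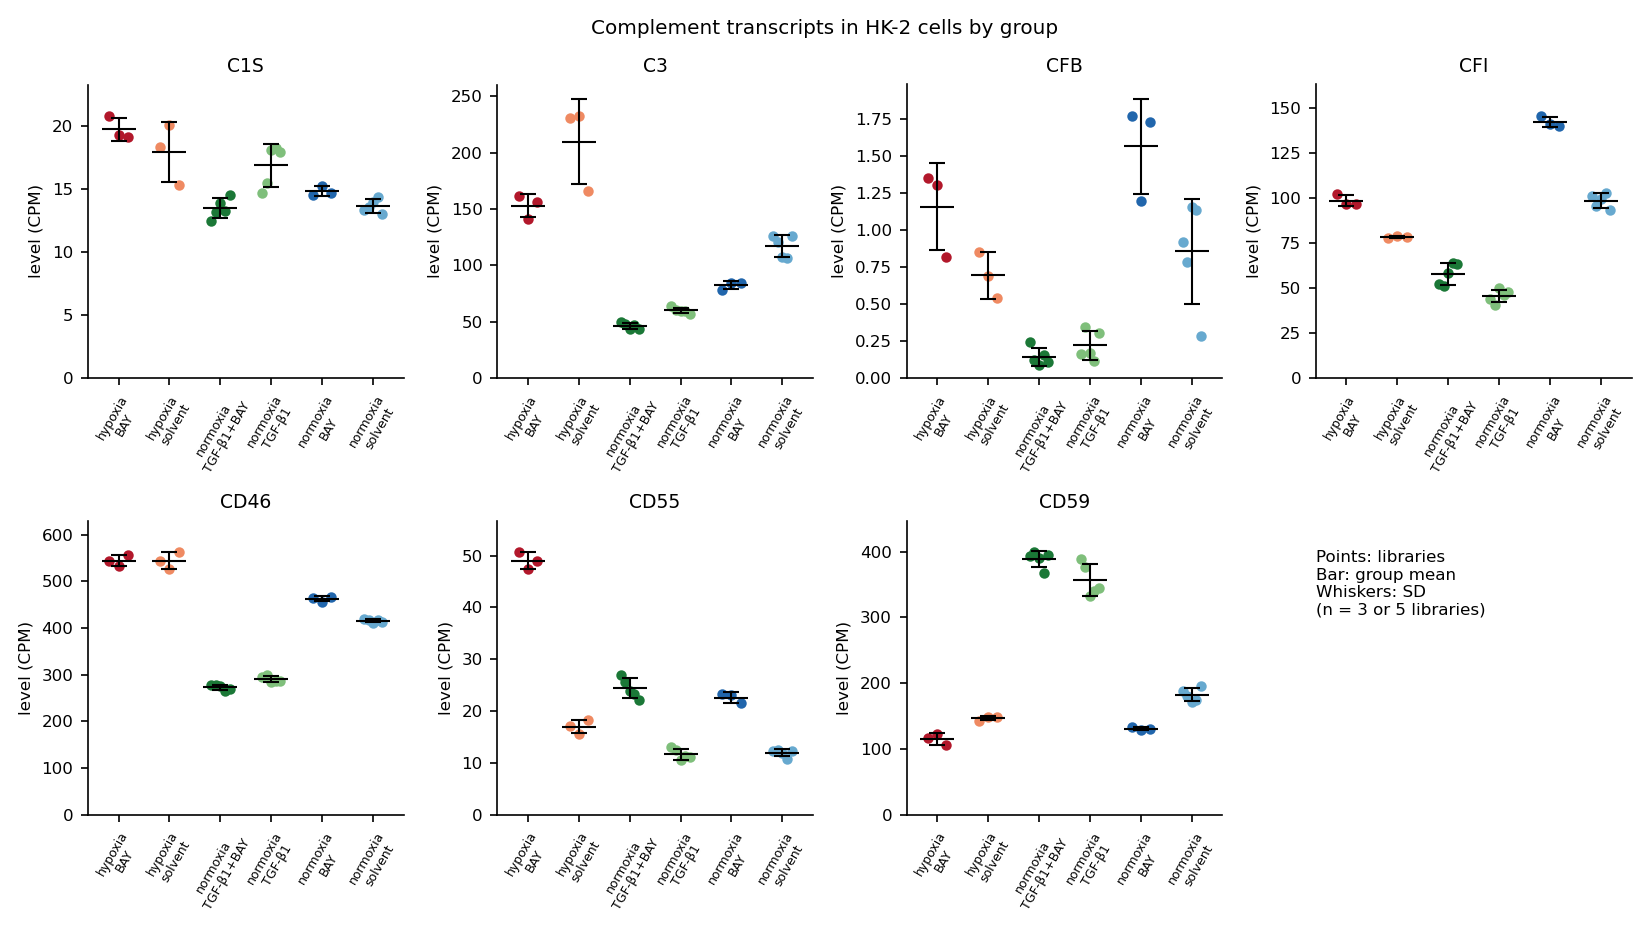
Levels of 7 complement transcripts in CPM (y axes from 0) in the 6 groups (x axis), with a point per library, a bar for the group mean and whiskers for the SD (n = 3 or 5 libraries). CD55 was highest in hypoxia with BAY, at 47.3 to 50.6 CPM, CD59 in the TGF-β1 groups, at 332 to 399 CPM, and C3 in hypoxia with solvent, at 166 to 233 CPM.

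CD55, decay-accelerating factor, was higher with BAY in all 3 settings. In hypoxia it stood at 50.6, 47.3 and 49.0 CPM in the BAY libraries, against 17.1, 15.6 and 18.2 CPM in the solvent libraries. The lowest BAY library lay far above the highest solvent library. The fold was 2.88 (log2 1.53 ± 0.062 SE, adjusted p = 9.42e-11 by edgeR). In normoxia CD55 stood at 23.3, 23.0 and 21.4 CPM with BAY, against 12.3, 12.4, 11.9, 10.7 and 12.2 CPM with solvent, and the groups did not overlap (log2 0.94 ± 0.054 SE, adjusted p = 2.16e-09 by edgeR). On TGF-β1, libraries with BAY held 27.0, 25.6, 23.9, 23.4 and 22.1 CPM, against 13.0, 12.5, 10.5, 11.3 and 11.0 CPM with TGF-β1 alone. These groups did not overlap either, and the log2 change was 1.06 ± 0.065 SE (adjusted p = 8.37e-10 by edgeR). The BAY effect was larger in hypoxia than in normoxia by a log2 of 0.58 ± 0.083 SE (adjusted p = 2.15e-04 by edgeR), while its difference between TGF-β1 and solvent was 0.14 ± 0.099 SE and not called (adjusted p = 0.360 by edgeR).

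Hypoxia without BAY also raised CD55, by a log2 of 0.51 ± 0.055 SE (adjusted p = 7.35e-07 by edgeR), and the 3 hypoxic solvent libraries lay above the 5 normoxic ones. TGF-β1 alone left CD55 at a log2 difference of -0.03 ± 0.065 SE (adjusted p = 0.703 by edgeR), and the groups overlapped. The order of its group means began with hypoxia with BAY (49.0 ± 1.63 CPM), then TGF-β1 with BAY (24.4 ± 1.92 CPM) and normoxia with BAY (22.6 ± 0.994 CPM), which differed from each other by less than their spread. Hypoxia with solvent followed at 17.0 ± 1.31 CPM. TGF-β1 at 11.7 ± 1.06 CPM and normoxia with solvent at 11.9 ± 0.698 CPM came last and did not differ beyond their spread.

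CD59, protectin, moved the other way with BAY outside TGF-β1. In normoxia it stood at 133, 129 and 130 CPM with BAY, against 189, 181, 172, 175 and 195 CPM with solvent. All BAY libraries lay below all solvent libraries, a fall by 0.46 on the log2 scale (SE 0.045, adjusted p = 7.44e-07 by edgeR). In hypoxia it stood at 116, 123 and 106.1 CPM with BAY, against 143, 149 and 148 CPM with solvent, again without overlap, and fell by 0.36 on the log2 scale (SE 0.050, adjusted p = 3.99e-05 by edgeR). Hypoxia itself lowered it, by a log2 change of -0.31 ± 0.045 SE (adjusted p = 1.87e-05 by edgeR). The oxygen by BAY interaction of CD59 was not called (log2 0.10 ± 0.067 SE, adjusted p = 0.323 by edgeR).

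TGF-β1 raised CD59 to 389, 377, 332, 341 and 344 CPM, against 189, 181, 172, 175 and 195 CPM with solvent. The lowest TGF-β1 library lay well above the highest solvent library, at a fold of 1.96 (log2 0.97 ± 0.044 SE, adjusted p = 1.03e-12 by edgeR). With TGF-β1 and BAY the 5 libraries held 394, 399, 390, 368 and 394 CPM and overlapped those with TGF-β1 alone. The small difference was called (log2 0.12 ± 0.044 SE, adjusted p = 0.0403 by edgeR), but not by DESeq2 (0.12, adjusted p = 0.0604), with RLE scaling (0.12, adjusted p = 0.0752) nor among the libraries of set 1 alone, where the log2 change was 0.04. It was also lost without TGF-β1 with BAY replicate 1, 2, 3 or 5 or TGF-β1 replicate 3, 4 or 5, with values over all leave-outs from 0.10 to 0.16. The BAY effect on CD59 under TGF-β1 exceeded that in normoxia with solvent by a log2 of 0.60 ± 0.068 SE (adjusted p = 3.58e-06 by edgeR), which held in set 1 alone (0.53) and in set 2 alone (0.58).

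CD46, membrane cofactor protein, changed with BAY by a log2 of no more than 0.17 in size. TGF-β1 lowered it to 295, 299, 283, 286 and 287 CPM, against 420, 418, 411, 418 and 412 CPM with solvent, with a wide gap between the groups (log2 -0.52 ± 0.022 SE, adjusted p = 4.38e-13 by edgeR). Hypoxia raised it to 545, 526 and 562 CPM, against the same solvent libraries, without overlap (log2 0.39 ± 0.032 SE, adjusted p = 2.96e-08 by edgeR). BAY raised it in normoxia, where it stood at 465, 456 and 467 CPM (log2 0.17 ± 0.032 SE, adjusted p = 4.07e-04 by edgeR). In hypoxia it stood at 544, 534 and 556 CPM with BAY and overlapped the solvent libraries, and the log2 change was -0.00 ± 0.036 SE (adjusted p = 0.959 by edgeR). Under TGF-β1 with BAY it stood at 277, 278, 275, 265 and 270 CPM, all below the 5 libraries with TGF-β1 alone (log2 -0.09 ± 0.022 SE, adjusted p = 0.00552 by edgeR).

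The interaction of BAY with TGF-β1 was called for CD46 (log2 -0.24 ± 0.034 SE, adjusted p = 4.13e-05 by edgeR). That with oxygen was called at -0.18 ± 0.048 SE (adjusted p = 0.0206 by edgeR) but was lost with no filter on low counts (adjusted p = 0.0743), against set 2 alone (-0.15), and without hypoxia with BAY replicate 2 or any of the 3 libraries of normoxia with BAY (-0.14 to -0.20 over all leave-outs).

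**Figure D2:**
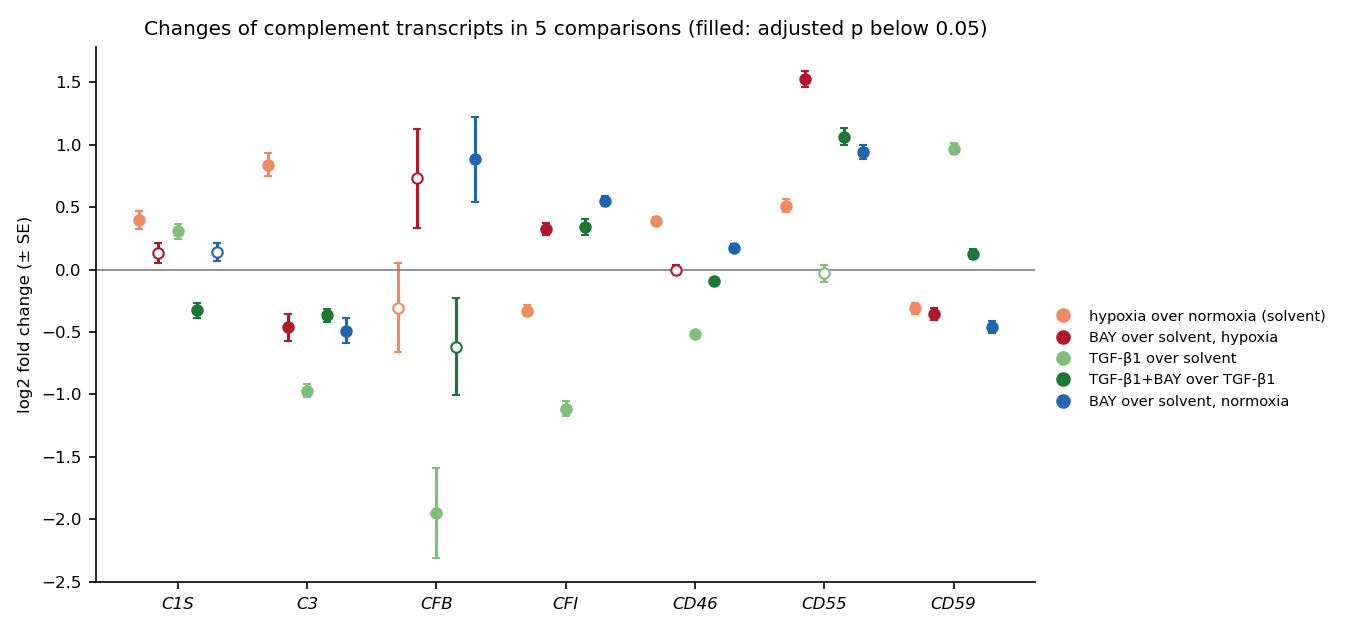
Log2 fold changes (y axis) of 7 complement transcripts (x axis) in 5 comparisons, given by colour, with whiskers for the SE and filled points where the edgeR adjusted p was below 0.05. CD55 lay between 0.94 and 1.53 with BAY in every setting, while C3 lay between -0.49 and -0.37 with BAY and at 0.84 with hypoxia.

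CFI (ENSG00000205403, chromosome 4, 109740694 to 109802179, minus strand), the protease that cleaves C3b and C4b, was higher with BAY in every setting. In normoxia it stood at 146, 141 and 140 CPM with BAY, against 101, 95.5, 99.7, 103 and 93.2 CPM with solvent. No BAY library reached down to the solvent range (log2 0.55 ± 0.040 SE, adjusted p = 2.55e-08 by edgeR). In hypoxia it stood at 102, 96.9 and 96.8 CPM with BAY, against 78.0, 79.1 and 78.1 CPM with solvent, without overlap (log2 0.33 ± 0.045 SE, adjusted p = 3.54e-05 by edgeR). With TGF-β1 and BAY it stood at 52.3, 51.0, 58.3, 64.0 and 63.2 CPM, against 43.9, 40.7, 49.8, 45.9 and 47.6 CPM with TGF-β1 alone. The lowest library with BAY lay just above the highest without (log2 0.34 ± 0.062 SE, adjusted p = 3.68e-04 by edgeR).

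TGF-β1 lowered CFI below every solvent library, with a log2 change of -1.11 ± 0.063 SE (adjusted p = 2.21e-11 by edgeR), and hypoxia lowered it by a log2 change of -0.33 ± 0.041 SE (adjusted p = 3.64e-06 by edgeR). Hypoxia with BAY averaged 98.6 ± 2.99 CPM (SD, n = 3) and normoxia with solvent 98.5 ± 4.04 CPM (SD, n = 5), within their spread. The BAY effect on CFI was smaller in hypoxia by a log2 of -0.22 ± 0.060 SE (adjusted p = 0.0200 by edgeR). That call was lost with all 24 libraries in 1 fit (-0.20, adjusted p = 0.186), against set 2 alone (-0.15) and without normoxia with BAY replicate 1 (-0.18) or 2 (-0.21). An overlapping protein-coding ID on the same strand (ENSG00000285330) averaged 6.85 CPM over the libraries, and how reads were divided between it and CFI is not given in the sources used here.

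SERPING1 (ENSG00000149131, chromosome 11, 57597387 to 57614853, plus strand), the inhibitor of C1R and C1S, was at the edge of detection. It had 0 counts in 8 of 24 libraries. At the depths of all 24 libraries, a count of 0 allows up to 0.0284 to 0.038 CPM (3 counts per library, counting error only). The 16 libraries with counts above 0 had at most 6 counts, or 0.0650 CPM. The groups overlapped in every group-to-group comparison made here, so no difference was detectable in these at this depth.

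C3 (ENSG00000125730, chromosome 19, 6677704 to 6730562, minus strand), the substrate of the C3 convertases, was the member most raised by hypoxia. It stood at 231, 233 and 166 CPM in hypoxia with solvent, against 126, 120, 108, 107 and 126 CPM in normoxia with solvent. Hypoxic replicate 3 was the lowest of its group but lay above every normoxic library (fold 1.79, log2 0.84 ± 0.095 SE, adjusted p = 3.76e-06 by edgeR). With BAY in hypoxia C3 stood at 161, 141 and 156 CPM, all just below the lowest hypoxic solvent library, and fell by 0.46 on the log2 scale (SE 0.108, adjusted p = 0.00414 by edgeR). With BAY in normoxia it stood at 78.2, 84.4 and 84.5 CPM, below all solvent libraries, and fell by 0.49 on the log2 scale (SE 0.098, adjusted p = 0.00126 by edgeR). This call was lost against the solvent libraries of set 2 alone (-0.38, adjusted p = 0.0585).

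TGF-β1 lowered C3 to 63.5, 60.6, 59.4, 59.5 and 56.8 CPM, against 126, 120, 108, 107 and 126 CPM with solvent, a fold of 0.511 (log2 -0.97 ± 0.052 SE, adjusted p = 9.66e-12 by edgeR). Added to TGF-β1, BAY gave 49.98, 47.7, 43.8, 47.4 and 43.9 CPM, all below the libraries with TGF-β1 alone (log2 -0.37 ± 0.052 SE, adjusted p = 2.85e-05 by edgeR). C3 was thus lower with BAY in all 3 settings, and neither interaction was called (oxygen 0.03 ± 0.145 SE, adjusted p = 0.922; TGF-β1 0.14 ± 0.079 SE, adjusted p = 0.229, both by edgeR). From lowest to highest, the group means were TGF-β1 with BAY (46.5 ± 2.67 CPM), TGF-β1 (60.0 ± 2.43 CPM), normoxia with BAY (82.4 ± 3.59 CPM), normoxia with solvent (117 ± 9.56 CPM), hypoxia with BAY (153 ± 10.4 CPM) and hypoxia with solvent (210 ± 37.9 CPM). No neighbours in this order overlapped in their libraries.

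CFB (ENSG00000243649, chromosome 6, 31945650 to 31952084, plus strand), the protease subunit of the alternative pathway convertase, was scarce. TGF-β1 lowered it to 0.161, 0.344, 0.172, 0.116 and 0.307 CPM, against 0.922, 0.785, 1.16, 1.14 and 0.286 CPM with solvent. Solvent replicate 5, with 26 counts, fell inside the TGF-β1 range, and the other 4 solvent libraries lay above it (log2 -1.95 ± 0.361 SE, adjusted p = 1.21e-04 by edgeR). The call was lost within set 1 alone (-1.35, adjusted p = 0.0660). BAY in normoxia gave 1.77, 1.20 and 1.73 CPM, above every solvent library, at an adjusted p of 0.0480 by edgeR (log2 0.88 ± 0.338 SE). This was lost with no filter on low counts (adjusted p = 0.0929), with all 24 libraries in 1 fit (adjusted p = 0.0519), in set 2 alone (0.46), and without BAY replicate 1 (0.78) or 3 (0.80) or solvent replicate 1 (0.90) or 2 (0.85).

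In hypoxia CFB stood at 1.36, 1.31 and 0.818 CPM with BAY, against 0.853, 0.693 and 0.538 CPM with solvent, and the groups overlapped. The log2 difference of 0.73 ± 0.395 SE was not called (adjusted p = 0.169 by edgeR), but was called with the replicate number as a block (0.74, adjusted p = 0.0356 by edgeR). Hypoxia itself gave -0.31 ± 0.356 SE (adjusted p = 0.484 by edgeR), with 0.08 against set 1 alone and -0.70 against set 2 alone (adjusted p = 0.0287). On TGF-β1 the BAY difference was -0.62 ± 0.389 SE (adjusted p = 0.266 by edgeR), at 8 to 23 counts per library with BAY and 10 to 33 without. The interaction of BAY with TGF-β1, at -1.49 ± 0.542 SE, missed the threshold (adjusted p = 0.0601 by edgeR). It was called by DESeq2 (-1.50, adjusted p = 0.0374), by edgeR with all libraries in 1 fit (-1.49, adjusted p = 0.0409), and by edgeR without TGF-β1 with BAY replicate 1, TGF-β1 replicate 4 or solvent replicate 3 or 4.

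C1S (ENSG00000182326, chromosome 12, 6988259 to 7071032, plus strand), the protease that cleaves C4 and C2, showed log2 changes of no more than 0.45 in size, its interaction with TGF-β1 included. Hypoxia raised it to 18.4, 20.1 and 15.3 CPM, against 13.3, 13.6, 14.0, 14.4 and 13.0 CPM in normoxia with solvent, without overlap (log2 0.40 ± 0.072 SE, adjusted p = 1.78e-04 by edgeR). TGF-β1 raised it to 14.7, 15.5, 18.1, 18.3 and 18.0 CPM, also above all solvent libraries (log2 0.31 ± 0.060 SE, adjusted p = 2.21e-04 by edgeR). Replicates 1 and 2, those of set 1, were the lowest with TGF-β1, and the log2 change was 0.22 within set 1 and 0.36 within set 2. With TGF-β1 and BAY it stood at 12.5, 13.2, 13.9, 13.3 and 14.6 CPM, all below the lowest TGF-β1 library, and fell by 0.33 on the log2 scale (SE 0.061, adjusted p = 3.94e-04 by edgeR). With BAY alone in normoxia it stood at 14.6, 15.3 and 14.7 CPM, just above the solvent range and not called (log2 0.14 ± 0.072 SE, adjusted p = 0.139 by edgeR).

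The 2 BAY effects on C1S differed by a log2 of -0.45 ± 0.092 SE (adjusted p = 0.00154 by edgeR, for TGF-β1 over normoxia with solvent). In hypoxia the C1S difference with BAY was 0.13 ± 0.081 SE and not called (adjusted p = 0.214 by edgeR), with 20.8, 19.3 and 19.1 CPM with BAY and overlap with the solvent libraries. It was called without hypoxia with solvent replicate 2 (0.22, adjusted p = 0.0480 by edgeR). The annotated span of C1S overlaps EMG1 on the same strand (26.9 CPM over all libraries) and LPCAT3 on the other (51 CPM), and whether the quantification used strand is not given in the sources used here.

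Ratios within a library set the members against each other without the scaling between libraries. They are ratios of CPM without correction for transcript length, so only their differences between groups are read, as a description. C3 per CFI transcript was 1.55 ± 0.0805 in hypoxia with BAY and 2.67 ± 0.475 in hypoxia with solvent (SD, n = 3 each). It was 0.815 ± 0.121 with TGF-β1 and BAY and 1.32 ± 0.140 with TGF-β1 (SD, n = 5 each), and 0.580 ± 0.0367 in normoxia with BAY (SD, n = 3) and 1.20 ± 0.133 with solvent (SD, n = 5). The C3 transcript thus stood lower against the CFI transcript with BAY in each setting, without overlap of the libraries. CD55 per CD59 was 0.428 ± 0.0393 in hypoxia with BAY and 0.116 ± 0.00969 with solvent (SD, n = 3 each), again without overlap. CD59 per CD46 was 1.43 ± 0.0257 with TGF-β1 and BAY and 1.23 ± 0.0604 with TGF-β1, against 0.438 ± 0.0233 in normoxia with solvent (SD, n = 5 each).

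**Figure D3:**
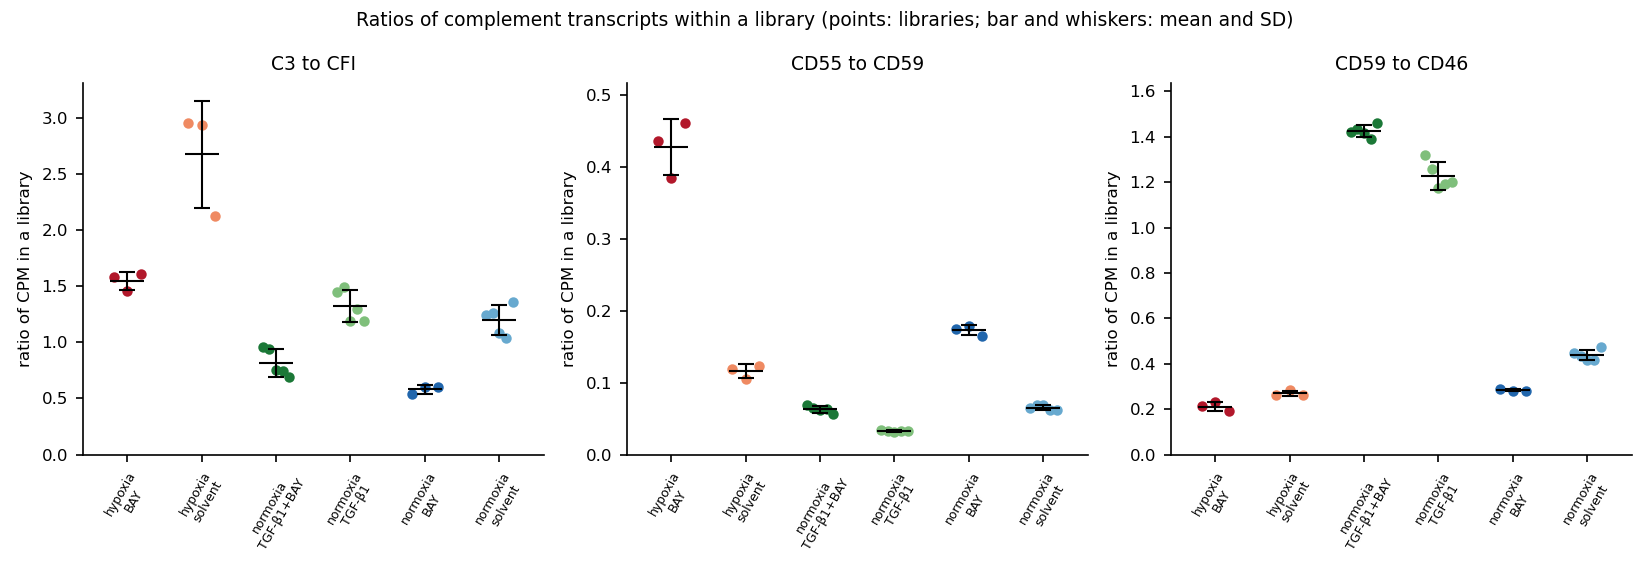
Ratios of CPM within a library (y axes from 0) for C3 to CFI, CD55 to CD59 and CD59 to CD46 in the 6 groups (x axis), with a point per library and a bar and whiskers for the mean and SD (n = 3 or 5). CD55 to CD59 reached 0.385 to 0.462 in hypoxia with BAY, and CD59 to CD46 exceeded 1.17 in every TGF-β1 library.

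Of 48 other complement genes followed, 46 had a row, and most were scarce. For 37 the highest group mean was under 1 CPM, including the C1q chains, C6 to C9 and the lectins, and 15 of 46 passed the filter. Of these, CLU, C5 and ITGAX averaged at least 5 CPM. With TGF-β1 2 of the 15 were called higher and 10 lower, beside 29.5% and 32.5% of all genes, with a median log2 change of -0.90, against -0.04 over all genes. In hypoxia 2 were called higher and 2 lower, 4 of 15 beside 60.8% of all genes. For BAY the counts were 3 and 3 in normoxia (beside 43.9% called in either direction), 2 and 4 in hypoxia (beside 37.9%) and 4 and 2 on TGF-β1 (beside 29.5%). The interaction of BAY was called upwards for 1 and downwards for 1 with oxygen (beside 16.8%), and upwards for 3 with TGF-β1 (beside 13.7% upwards). C4A and C4B, near-identical copies between which reads can be divided arbitrarily, stayed under 5 CPM in every group mean.

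C5, from which the lytic pathway starts, fell with hypoxia by 1.09 on the log2 scale (adjusted p = 1.33e-10 by edgeR) and with TGF-β1 by 1.72 (adjusted p = 1.58e-15 by edgeR). BAY raised it on TGF-β1 by a log2 of 0.34 (adjusted p = 3.68e-05 by edgeR), with 12.1 to 14.3 CPM with BAY and 9.59 to 10.9 CPM without. The interaction of BAY with TGF-β1 was called for C5 (log2 0.25, adjusted p = 0.0242 by edgeR). That call was lost in set 1 alone (0.10), with no filter (adjusted p = 0.0541 by edgeR) and without normoxia with BAY replicate 1 (0.21). CLU, clusterin, an inhibitor of the membrane attack complex, fell with TGF-β1 by 1.33 (adjusted p = 1.33e-06 by edgeR). Within normoxic solvent, replicates 3 and 4 of set 2 held 325 and 326 CPM and the other 3 held 493 to 536 CPM, and the log2 change of CLU with BAY was 0.22 against set 1 and 0.86 against set 2 (0.46 in all, adjusted p = 0.0224 by edgeR). ITGAX, a subunit of complement receptor 4, was called higher with BAY in all 3 settings, by a log2 of 0.34 in normoxia, 0.24 in hypoxia and 0.33 on TGF-β1.

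Leaving out BAY replicate 3 (0.16) or solvent replicate 2 (0.23) ended the ITGAX call in hypoxia, and set 1 alone (0.10) ended that on TGF-β1. The call of CLU in normoxia was lost without any of the 3 BAY libraries (0.42, 0.45 and 0.48) and with no filter on low counts (0.46, adjusted p = 0.0546). On TGF-β1 the CLU change with BAY was 0.44 (adjusted p = 0.0415 by edgeR), and it was lost without TGF-β1 with BAY replicate 1, 2 or 4 or TGF-β1 replicate 3, 4 or 5, and with no filter (adjusted p = 0.0975). In hypoxia it was 0.37 and not called (adjusted p = 0.0996), but called with the replicate block (0.37, adjusted p = 0.0155 by edgeR).

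**Figure D4:**
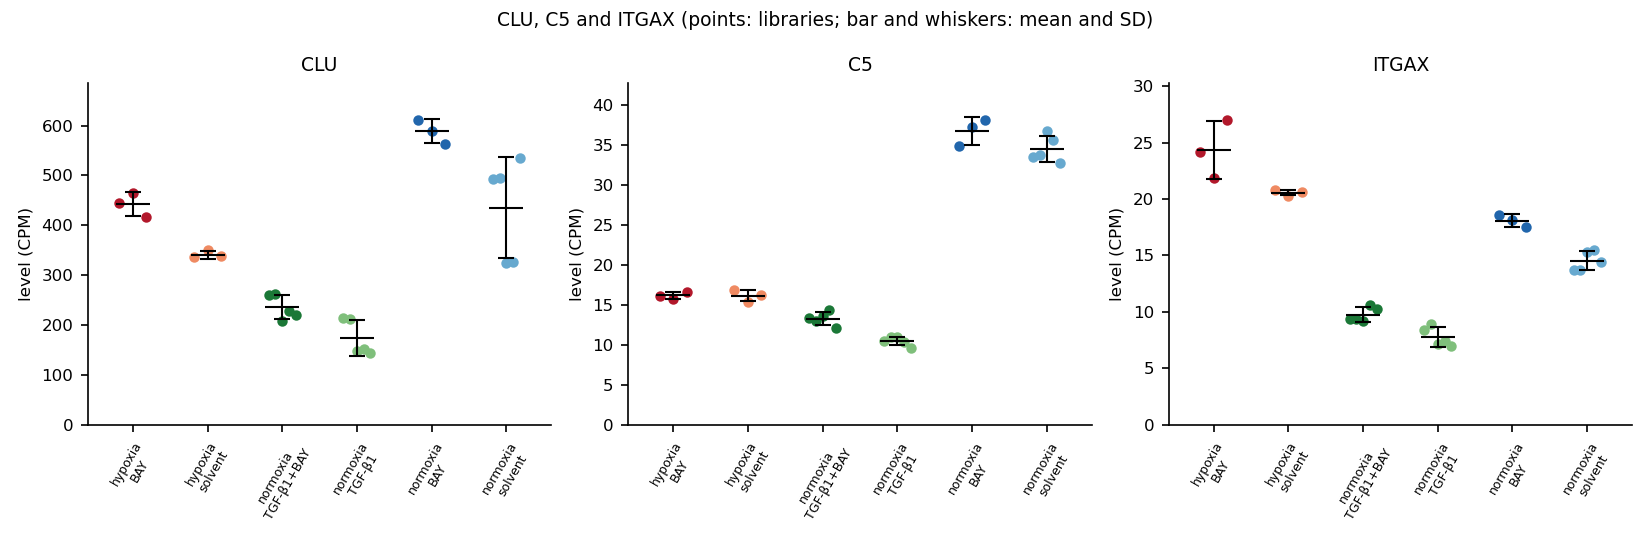
Levels in CPM (y axes from 0) of CLU, C5 and ITGAX in the 6 groups (x axis), with a point per library and a bar and whiskers for the mean and SD (n = 3 or 5). C5 lay at 12.1 to 14.3 CPM with TGF-β1 and BAY and at 9.59 to 10.9 CPM with TGF-β1, and CLU split into 2 clusters within normoxic solvent.

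Of 29 inducers and signalling genes of complement expression, 28 were tested. The counts called higher and lower were 15 and 7 in hypoxia (beside 60.8% of all genes called in either direction), 7 and 12 for BAY in normoxia (43.9%), 12 and 8 for BAY in hypoxia (37.9%), 8 and 16 for TGF-β1 (62%), and 4 and 6 for BAY on TGF-β1 (29.5%). Among those called and averaging at least 5 CPM in a group of the comparison, the largest changes in hypoxia were those of CEBPB (log2 1.57) and CEBPD (1.47), factors that bind the C3 promoter, and the interleukin-1 receptor IL1R1 (-1.42). With TGF-β1 they were the interleukin-6 receptor IL6R (-2.04), CEBPD (-1.98) and the signalling inhibitor SOCS3 (-1.46), the largest adjusted p being 8.17e-04 by edgeR. The SOCS3 change was -0.36 in set 2 alone.

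With BAY the largest at that level in normoxia were CEBPD (log2 1.67), the NF-κB subunit RELB (-1.15) and the oxidative stress factor NFE2L2 (1.01). In hypoxia they were the oxygen-regulated factor EPAS1 (1.19), the NF-κB inhibitor NFKBIA (-1.15) and RELB (-1.10). On TGF-β1 they were EPAS1 (0.68), IL6R (-0.68) and the NF-κB subunit NFKB1 (-0.52). The oxygen by BAY interaction was called upwards for 10 and downwards for 5 of the list (beside 16.8% of all genes), led at that level by EPAS1 (1.15), CEBPD (-0.72) and IL1R1 (0.69). Of these the CEBPD call (adjusted p = 0.0386 by edgeR) was lost with RLE scaling (adjusted p = 0.0563), with no filter (adjusted p = 0.0909), with all libraries in 1 fit (adjusted p = 0.0734) and without any 1 of the hypoxic or normoxic BAY libraries or hypoxic solvent libraries. The TGF-β1 by BAY interaction was called upwards for 8 and downwards for 3 (beside 20.7%), led at that level by CEBPD (-1.49), RELB (0.85) and NFE2L2 (-0.84). Below 5 CPM in every group mean, the cytokine genes IL6 and IL1B, chosen after their values were seen, had called changes larger than some of these. IL6 averaged 0.944 ± 0.125 CPM in normoxia with BAY (SD, n = 3) and 3.45 ± 1.71 CPM with solvent (SD, n = 5), a log2 change of -1.84 (adjusted p = 0.00286 by edgeR), and its interactions were 2.29 with oxygen (adjusted p = 0.0182 by edgeR) and 2.15 with TGF-β1 (adjusted p = 0.00844 by edgeR). IL1B, under 1 CPM in all libraries, was called higher with BAY by a log2 of 1.78 in hypoxia and 1.02 in normoxia. In set 2 alone the IL6 values were -0.78 for BAY in normoxia, 1.24 for the interaction with oxygen and 1.02 for that with TGF-β1, all called. The IL6 interaction with oxygen was lost with no filter (adjusted p = 0.0504) and without normoxia with BAY replicate 1 (2.26), and the IL1B call in normoxia was lost with all libraries in 1 fit (adjusted p = 0.110) and without BAY replicate 1 (0.85). CEBPD and C3 both rose with hypoxia and both fell with TGF-β1. With BAY in normoxia and in hypoxia CEBPD rose and C3 fell. On TGF-β1 the CEBPD change with BAY was not called (log2 0.16), and C3 fell. CEBPB rose with hypoxia, as C3 did, but also rose with TGF-β1 (log2 0.87), where C3 fell. With BAY it was called higher in normoxia (0.57) and was not called in hypoxia (0.06) or on TGF-β1 (0.17). The part of these genes in the changes of the members was not tested.

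The genes most like each member over the 24 libraries, by Pearson's r of log2(CPM + 0.5) among 11252 genes, are a description of patterns that the 6 groups largely set. They were SNAP25 (r = 0.969) and CUL7 (0.964) for CD55, SPARC (0.994) and ARSJ (0.993) for CD59, and PATJ (0.997) and F3 (0.994) for CD46. For CFI they were KIF12 (0.983) and TIA1 (0.974), for C3 SLC25A23 (0.991) and CNTNAP1 (0.991), for CFB SLC25A16 (0.939) and ARHGEF38 (0.924), and for C1S RNF217 (0.904) and MTRFR (0.898).

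Markers of other cells were measured beside these results. The summed immune markers lay at 46.7 to 55.7 CPM in hypoxia with BAY and 60.4 to 69.1 CPM with solvent, at 59.5 to 62.9 CPM with TGF-β1 and BAY and 55.4 to 61.0 CPM with TGF-β1, and at 10.0 to 11.0 CPM in normoxia with BAY and 15.7 to 18.7 CPM with solvent. The 7 summed fibroblast markers (COL1A2, COL3A1 and PDGFRA at or near 0) lay at 286 to 299.5 CPM with TGF-β1 and 110 to 134 CPM with solvent. COL1A1, at 223 ± 5.40 CPM with TGF-β1 and 36.6 ± 2.14 CPM with solvent (SD, n = 5 each), made up most of that difference, while LUM was called lower (51.8 to 64.4 CPM with TGF-β1 and 72.2 to 93.4 CPM with solvent). With BAY the same sum lay at 223 to 242 CPM in hypoxia, against 124 to 131.5 CPM with solvent, and at 163 to 169.6 CPM in normoxia, against 110 to 134 CPM, and at 263 to 284 CPM on TGF-β1, against 286 to 299.5 CPM. The 12 proximal tubule markers, nearly all GGT1, summed to 81.6 to 107 CPM with TGF-β1, against 199.6 to 234 CPM with solvent, while AQP1 and CUBN, under 3 CPM in all libraries, were called higher with TGF-β1 (log2 5.98 and 1.86). With BAY that sum was 307 to 317 CPM in normoxia, against 199.6 to 234 CPM with solvent, 226 to 248.5 CPM in hypoxia, against 218 to 237 CPM, and 59.1 to 80.1 CPM on TGF-β1, against 81.6 to 107 CPM. The 4 podocyte markers summed to 1228 to 1351 CPM in hypoxia with BAY and 451 to 486 CPM with solvent, nearly all of it SYNPO. NPHS1 and WT1 were at or near 0, and PODXL was called lower with BAY in hypoxia (log2 -1.20) and with hypoxia (-0.65). The 6 endothelial markers summed to at most 3.41 CPM. Of the 8 epithelium and renal lineage markers, 5 were called lower with TGF-β1, with PAX2 (log2 -2.92) and CDH1 (-2.88) falling most. The 2 called higher were CDH2 (1.41) and KRT8 (0.35), beside 32.5% lower and 29.5% higher over all genes. Hypoxia in solvent cells gave 5 called higher and 1 lower, beside 29.2% and 31.6%. For BAY the counts higher and lower were 2 and 4 in normoxia (beside 20.6% and 23.3%). They were 1 and 6 in hypoxia (beside 16.5% and 21.4%) and 2 and 4 on TGF-β1 (beside 13.9% and 15.6%). Of hepatocyte markers SERPINA1 averaged 59.4 CPM over the libraries, while ALB, APOB and TTR were at or near 0. The part of such shifts in the members' changes was not tested, and in bulk RNA a change in the share of cells cannot be told apart from a change per cell.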

How the data were processed

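The authors deposited 1 table of estimated counts (expected counts per Ensembl gene). Fractional values made up 48.6% of those above 0 (tolerance 1e-06). Per the submitters' processing notes, Salmon and DESeq2 were used with GRCh38 (hg38). The sources used here do not give versions, annotation release, strand setting or the summing of transcripts. Salmon divides reads between sequences that genes share, so overlapping genes and copies can trade reads.

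Values were rounded to integers before the tests. Symbols were looked up by Ensembl ID (58919 of 65180 IDs matched), positions and transcript lengths came from GENCODE 29, and promoters from RefSeq. A promoter window was found for 5 of the 8 members with a row. The hypoxia experiment (14 libraries) and the TGF-β1 experiment (18 libraries) were each fitted in edgeR 4.0.16 (R 4.3.3) with filterByExpr, TMM scaling, a mean per group and the robust quasi-likelihood test, 2-sided. The SE is the absolute log2 change divided by the square root of F, so it is approximate. Levels are CPM, TMM-scaled over all 24 libraries. The scripts were tested on simulated data.

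All members are named. Other complement genes are named at a mean of at least 5 CPM, and of the inducers the 3 called genes with the largest change per comparison among those averaging at least 5 CPM in a group. The members and lists were chosen with earlier results of these data known. C1RL and MASP1 of the listed genes are not analysed here, and 3 further genes of the lists are not reported here and are left out of their counts. All 39 pairs of replicates differed beyond sampling noise (chi-square per degree of freedom 5.46 to 48.1), and each library counted as 1 replicate.

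Same-numbered libraries deviated together in every pair for BAY in hypoxia (correlations 0.144 to 0.233) and for BAY on TGF-β1 (0.329 to 0.623). No label says what a number shares, and only same-numbered pairs were compared. In both TGF-β1 groups equal numbers also fall in the same set of libraries, so there pairing cannot be told apart from that split. For TGF-β1 against solvent 4 of 5 pairs deviated together (0.215 to 0.492). Pair 5, whose libraries lie in different sets, did not (-0.337). In the other comparisons no pair exceeded 0.1. The main tests held no block in any comparison, and the block is an alternative alone. Alternatives were DESeq2 1.42.0, RLE scaling, no filter on low counts, the replicate block, all 24 libraries in 1 fit and leaving out each library. The 2 sets of libraries, alone or as a term, were added after seeing the data. With a set alone, only the groups of 5 were restricted, and the groups of 3, given no set, were kept whole. Such a contrast may therefore put libraries of different sets against each other.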

Additional observations from a re-analysis of the deposited data

Results flagged for a closer look

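The effect of BAY differed between settings, by a test of the difference itself in edgeR, for 6 member effects. Each interaction was tested for 7 members, beside 16.8% of all genes called with oxygen and 20.7% with TGF-β1. Between hypoxia and normoxia the BAY effect differed by a log2 of 0.58 for CD55, which was higher with BAY in both. It differed by -0.22 for CFI, which was higher with BAY in both. It differed by -0.18 for CD46, which was called higher with BAY in normoxia only. These CFI and CD46 calls were lost against set 2 alone and without some single libraries of normoxia with BAY. Between TGF-β1 and normoxia with solvent the BAY effect differed by 0.60 for CD59, which fell with BAY without TGF-β1. It differed by -0.24 for CD46, which was called higher with BAY without TGF-β1 and lower with it. It differed by -0.45 for C1S, which fell with BAY on TGF-β1.

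Of 24 checks of a member in a group of 5 libraries, 2 found a library far from the others. The rule's chance rate of about 1 in 20 is for continuous values and does not hold for SERPING1, with 0 to 6 counts. SERPING1 stood at 0.0513 CPM in TGF-β1 with BAY replicate 2, against 0 to 0.0118 CPM in the other 4. It stood at 0.0106 CPM in TGF-β1 replicate 5, against 0 in the other 4, where any count above 0 would have been flagged. Both rest on a few counts.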

How the results depend on the processing

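Of the 7 comparisons, the count of members called stayed within 1.5 times its value under every alternative except for the interactions. For oxygen by BAY it was 1 against set 2 alone (3 in all) and 1 to 3 when a library was left out. The count of all genes was 5821 there against the solvent libraries of set 1 alone (3571 in all). For TGF-β1 by BAY the counts were 5 members and 7103 genes with set 1 alone in the groups of 5, against 3 and 4487 in all. The cause was not tested. RLE scaling, DESeq2 and the fit of all libraries moved the median change of all genes by at most 0.02.

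Signs turned for some differences that were not called. CD46 with BAY in hypoxia became 0.0048 with DESeq2, 0.0047 with RLE and 0.0014 with all libraries (-0.0283 to 0.0217 over leave-outs), and C5 there 0.0058, 0.0059 and 0.0024 (-0.0378 to 0.028). The oxygen by BAY interaction of C1S became 0.0161, 0.0162 and 0.0192 in the same order and 0.0793 with set 2 (-0.1028 to 0.082), that of CFB 0.0142 with the replicate block and 0.2884 with set 2 (-0.3024 to 0.067), and that of C3 -0.0706 with set 2 (-0.1126 to 0.1065). The TGF-β1 change of CD55 became 0.091 in set 1 (-0.0747 to 0.0047), the hypoxia change of CFB 0.0831 in set 1, and the TGF-β1 by BAY interaction of C3 -0.002 in set 2. The hypoxia change of CLU (-0.34, adjusted p = 0.0625 by edgeR) became 0.0832 in set 2, but was called in set 1 (-0.55, adjusted p = 9.30e-08) and without solvent replicate 3 or 4 (-0.43 each). The causes were not tested. The calls that ended stand beside their results.

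The replicate block changed 2 calls where same-numbered libraries deviated together in every pair (CFB and CLU with BAY in hypoxia). It changed no other call of a named gene there. Elsewhere, where not every pair deviated together, it added CLU in hypoxia (-0.34) and the TGF-β1 by BAY interaction of CFI (-0.23, adjusted p = 0.0457 by edgeR), which was also called in set 1 alone (-0.32), as was that of C3 (0.20). CPM without TMM moved 16 of 48 group means of members by more than 1 SD. Depth limits CFB and SERPING1.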
